A study of Rattus norvegicus with 40 samples.

Results

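Neonatal rat ventricular myocytes kept for 120 min under a glass coverslip were set against the same cells at 0 min. The comparison used 8 of the 40 arrays of the study, chosen by their titles: 4 arrays at 120 min of ischemia and 4 at 0 min of ischemia, neither with reperfusion. Each group held 2 duplicate arrays from each of 2 cell preparations. The other 32 arrays were 10, 30 and 60 min of ischemia and the same 5 times of ischemia followed by reperfusion. All groups were isolated neonatal rat ventricular cells in the coverslip hypoxia model, with no drug, transgene or mutation named. In that model a coverslip laid on the cell layer leaves the covered cells with the oxygen and medium trapped beneath it. The labels give no strain, sex, culture time or cell purity, and they do not say whether duplicates were separate cultures. Duplicates were averaged before the test, so the p-values below do not measure the spread between duplicates. They rest on how far the preparations disagree, pooled over all 10 groups, a spread that may be technical. Arrays are named by preparation and duplicate, so that P2D1 is the first duplicate of the second preparation, and values per array are given in the order P1D1, P1D2, P2D1, P2D2.

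Cells short of oxygen stabilise the hypoxia-inducible factors (HIF), which bind a short DNA element and raise genes for glucose uptake, glycolysis, pH control, mitochondrial turnover and vessel growth. Immediate early genes encode transcription factors and RNA-binding proteins that are induced within minutes of many stimuli through factors already present in the cell. NF-kB is held in the cytoplasm by inhibitor proteins, and once released it raises cytokines, chemokines and its own inhibitors. In heart muscle, ischemia is also known to engage the integrated stress response, heat shock proteins and antioxidant genes under NRF2.

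Values are probe set intensities on a linear scale, normalized between arrays, with no further unit. Fold changes are differences of mean log2(intensity + 16), 120 min minus 0 min, with the standard error of the fit, n = 2 preparations in each group after averaging duplicates. A gene is said to have risen or fallen where the limma test gave an adjusted p (Benjamini-Hochberg, over all 18625 probe sets tested) below 0.05, and a gene of a list is read on its brightest probe set. The deposited median intensity of the 8 arrays ran from 102 to 152, and the number of arrays limits the precision.

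In each group 1 array stood apart from the rest. The array labelled 120 min P2D2 had an intensity of 9043 for Hspa1a, the inducible Hsp70 chaperone, against 848, 773 and 1156 on the other 120 min arrays. At 0 min Hspa1a had 593, 623, 495 and 556. After subtraction of each probe set's mean over the 40 arrays, P2D2 correlated 0.08 with the rest of its group, whereas the other 120 min arrays correlated 0.30 to 0.37 with theirs. Its nearest group was 60 min of ischemia followed by reperfusion, at 0.21, where the other 3 arrays had -0.09 to -0.01. With 120 min of ischemia followed by reperfusion P2D2 had 0.20 and the other 3 arrays had 0.22 to 0.26. The array labelled 0 min P1D1 had a median correlation of 0.872 with all other arrays, where the other 39 arrays had 0.96 to 0.979. Results are given with all 8 arrays as labelled and, where they differ, without 120 min P2D2 or without 0 min P1D1.

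The cardiomyocyte label held: all 12 cardiomyocyte markers measured, from Myh6 to Pln, were above the intensity filter on these arrays. Their summed intensity was 109000 to 114100 at 120 min and 104500 to 114200 at 0 min. Markers of other cell types were present too. All 13 fibroblast markers and all 8 smooth muscle and pericyte markers were above the same filter, so passing it does not identify the cells. The sum of 13 fibroblast markers was 64840 to 66180 at 120 min, above its range of 56710 to 62690 at 0 min. The sum of 15 macrophage and leukocyte markers was 9550 to 11010 at 120 min and 7806 to 9657 at 0 min, with 2 of the markers at or below 0 on all 8 arrays. For the 3 erythroid markers measured the sum was 224.7 to 509.2 at 120 min and 103.1 to 290.2 at 0 min, and 0 of them passed the filter. In these bulk samples more cells of a type and more RNA per cell cannot be told apart, and the part of these cells in the results was not tested.

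After 120 min, 2408 of 18625 probe sets (12.9%) had changed, 1202 upward (6.45%) and 1206 downward (6.48%). Read as 1 probe set per gene, 753 of 10483 genes rose (7.18%) and 427 fell (4.07%), which is the background for the gene lists below. The median change over all genes was 0.03. Without 120 min P2D2 the count was 3197 (17.2%), of which 2182 were among the 2408, and by gene 9.09% rose and 5.59% fell. Without 0 min P1D1 it was 2464 (13.2%), with 6.71% of genes up and 4.66% down, and 1977 of the 2408 kept their call and direction. An unadjusted p below 0.05 was reached by 31.8% of probe sets. The deposited scale, with no normalization between arrays, moved the median probe set by -0.22 and turned the split to 271 upward and 3140 downward, so directions below are relative to the bulk of the genes. On single arrays, 11.4% of genes had all 4 arrays at 120 min above all 4 at 0 min and 8.24% had them below. Rises of at least 1 log2 unit numbered 170 probe sets, of which 165 kept the call without 120 min P2D2 and 126 without 0 min P1D1. Falls of that size numbered 86, of which 75 kept the call without 120 min P2D2 and 70 without 0 min P1D1. Of 136 called probe sets named below, 62 kept their call with each of the 8 arrays left out in turn and moved by at most 1.5 times. A further 6 kept the call and moved by more, 33 lost it without 1 array, and 35 lost it without any of 2 or more arrays; for these an array that mattered and the value or adjusted p without it are given. Without 120 min P2D1, 39 of the 136 lost the call. That fit leaves P2D2, which stands apart, as the only 120 min array of the second preparation. Leaving out 0 min P1D2 likewise leaves P1D1 as the only 0 min array of the first preparation. A call lost in these fits may therefore reflect the array that remains. On the deposited scale 85 of the 136 kept call and direction, 48 no longer passed and 3 changed sign. Another tested probe set of the same gene existed for 48 of the 136, and it was called in the same direction for 11 and in the opposite one for 3. Among the rises below, another probe set did not pass for, among others, Pfkfb3 (0.16), Dusp1 (-0.004), Ero1a (0.16), Gclc (-0.08) and Cdkn1a (-0.61).

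Of 37 HIF targets outside glycolysis that were tested, 19 rose and 0 fell, where 7.18% of all genes tested rose, and their median change was 0.69 against 0.03 over all genes. Without 120 min P2D2, 26 rose, and without 0 min P1D1, 16 rose. On the deposited scale 9 rose, where 1.41% of all genes rose and 13.2% fell, with a median of 0.47 against -0.20 over all genes. The promoters of 2 of these genes are shown because they rose among the most and their windows hold the hypoxia response element core, ACGTG or GCGTG on either strand, marked in capitals. Each runs from 250 bases before to 50 bases after the gene's start in RefSeq, build GRCr8, written in the direction of the gene. The Ankrd37 window is chr16:53001257-53001556 on the plus strand, and the Ddit4 window is chr20:28436988-28437287 on the minus strand.
Ankrd37: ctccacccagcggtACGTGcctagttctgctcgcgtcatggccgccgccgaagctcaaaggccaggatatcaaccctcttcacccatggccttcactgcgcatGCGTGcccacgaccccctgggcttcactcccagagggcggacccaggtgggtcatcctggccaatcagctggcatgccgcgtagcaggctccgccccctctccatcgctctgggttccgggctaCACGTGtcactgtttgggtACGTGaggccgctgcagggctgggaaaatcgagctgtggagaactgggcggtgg
Ddit4: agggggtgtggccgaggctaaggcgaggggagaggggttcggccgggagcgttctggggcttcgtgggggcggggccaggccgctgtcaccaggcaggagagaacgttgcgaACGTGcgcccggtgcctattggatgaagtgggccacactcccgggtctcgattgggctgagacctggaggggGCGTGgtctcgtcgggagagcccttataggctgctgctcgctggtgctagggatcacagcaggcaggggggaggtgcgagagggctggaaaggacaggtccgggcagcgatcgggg
The core was found 5 times at Ankrd37, where a pair of matches on opposite strands overlap, and 2 times at Ddit4. It was in 26 of the 31 promoters matched for the HIF target list (83.9%), in 62.3% of the 8736 promoters of tested genes and in 42.9% of all 27457 promoters. That list was drawn up from known HIF targets, so its high share is no independent result. Among the listed targets that rose, the core was in 12 of 15 promoters (80.0%). Over all genes it was in 63.8% of the promoters of those that rose and in 58.1% of those that fell. A match of 5 letters is a description of the window and does not show binding.

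Ankrd37, an ankyrin repeat protein and a direct HIF-1 target, had 174, 194, 145 and 264 at 120 min, against 17, 14, -25 and -50 at 0 min. All 0 min arrays lay near or below 0, so the size of the change depends on the added constant: 3.20 ± 0.38 (adjusted p = 0.00207) with 16, 1.84 with 64 and 4.46 with 4. Ddit4, an inhibitor of mTORC1 signalling, had 3752, 3896, 3793 and 2135 at 120 min, against 485, 660, 590 and 554 at 0 min, a change of 2.50 ± 0.27 (adjusted p = 0.00116). P2D2 was the lowest 120 min array for Ddit4 and still lay far above every 0 min array. Vegfa, the vascular endothelial growth factor, had 5681, 5452, 5332 and 4904 at 120 min, against 3448, 3575, 3147 and 2750 at 0 min (0.73 ± 0.17, adjusted p = 0.0195), and 0.54 (adjusted p = 0.0532) on the deposited scale. Angptl4, an inhibitor of lipoprotein lipase, rose by 1.27 ± 0.18 (adjusted p = 0.00462), and Kdm3a, a histone demethylase, rose by 0.74 ± 0.17 (adjusted p = 0.0189), with no overlap of the groups for either. Bhlhe40, a repressor that also acts on clock genes, had 1927, 2000, 1986 and 2374 at 120 min, against 1222, 1032, 1312 and 1278 at 0 min (0.77 ± 0.15, adjusted p = 0.0115).

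Several other HIF targets rested in part on the 0 min P1D1 array. Hilpda, a lipid droplet protein, had 1248, 1151, 950 and 1009 at 120 min, against 40, 445, 365 and 341 at 0 min. Its change was 2.17 ± 0.35 (adjusted p = 0.0061) with all arrays and 1.42 (adjusted p = 0.00362) without P1D1, and the groups were separate either way. Ak4, a mitochondrial adenylate kinase, had 652, 604, 678 and 409 at 120 min, against -36, 437, -31 and -42 at 0 min. Its P1D2 value at 0 min lay within the 120 min range, and its log2 change was 4.0 ± 0.65 (adjusted p = 0.00649) with all arrays, 2.80 (adjusted p = 0.0944) without 0 min P1D1, and 2.58 with 64 added in place of 16. Ero1a, the oxidase that drives disulfide formation in the endoplasmic reticulum, had 2602, 2626, 2433 and 2390 at 120 min, against 277, 2025, 1288 and 1165 at 0 min. It gave 1.37 ± 0.25 (adjusted p = 0.00943) with all arrays and 0.67 (adjusted p = 0.0955) without P1D1. Bnip3, a mitophagy receptor, was above its 0 min values on every 120 min array and did not pass (0.78 ± 0.25, adjusted p = 0.0603), but passed without 120 min P2D2 (0.86, adjusted p = 0.0343).

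**Figure D1:**
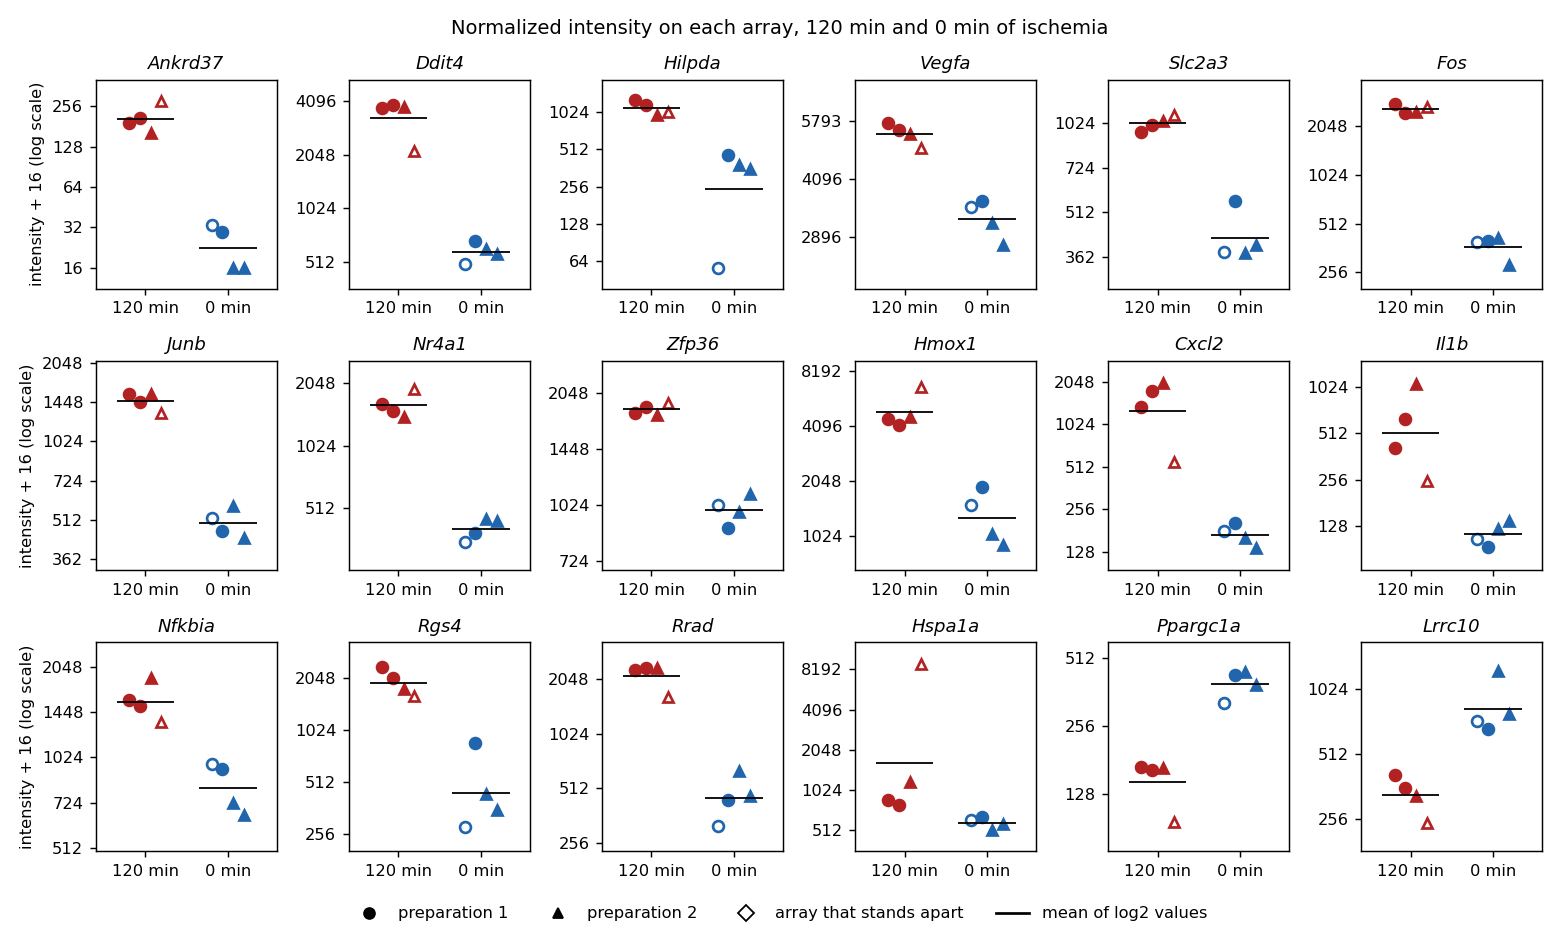
Normalized intensity plus 16 (log axis) of 18 genes on each array, 120 min left of 0 min, with circles for the first preparation, triangles for the second, open markers for 120 min P2D2 and 0 min P1D1, and lines at the mean of the log2 values. Fos, Nr4a1 and Zfp36 separate fully with tight groups, while Hspa1a is high on 1 array only (9043) and Cxcl2 and Il1b are lowest at 120 min on that same array.

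The HIF subunits and the oxygen-sensing hydroxylases did not pass as a group: 0 of 9 rose and 0 fell, and 1 rose without either 120 min P2D2 or 0 min P1D1. Hif1a, the oxygen-regulated alpha subunit, had 4681, 4480, 4872 and 4565 at 120 min, against -63, 4293, 4295 and 4342 at 0 min. The gap rested on 0 min P1D1: the change was 2.13 ± 0.82 (adjusted p = 0.104) with all arrays and 0.11 (adjusted p = 0.22) without it. Egln3, the prolyl hydroxylase that is itself a HIF target, had 6086, 5564, 5581 and 4987 at 120 min, against 3928, 5588, 3033 and 3270 at 0 min (0.53 ± 0.22, adjusted p = 0.134).

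Among genes of glucose uptake, glycolysis and lactate handling, 6 of 31 rose and 2 fell, with a median of 0.17 that turned to -0.05 on the deposited scale. Slc2a3, a high-affinity glucose transporter, had 944, 996, 1030 and 1075 at 120 min, against 360, 544, 356 and 381 at 0 min (1.29 ± 0.17, adjusted p = 0.00367). Pfkfb3, which makes the allosteric activator of phosphofructokinase, had 860, 866, 874 and 1175 at 120 min, against 300, 324, 277 and 225 at 0 min (1.69 ± 0.23, adjusted p = 0.00413). Both genes were separate between groups. The lactate carriers moved in opposite directions: Slc16a3, the exporter of glycolytic cells, gave 0.88 ± 0.22 (adjusted p = 0.0267), and Slc16a1 fell, at 4084, 3689, 3920 and 3523 at 120 min, against 4534, 4462, 4735 and 4854 at 0 min (-0.29 ± 0.06, adjusted p = 0.0111). Slc16a3 did not pass without 0 min P1D1 (0.77, adjusted p = 0.061) or without 120 min P2D1 (0.75, adjusted p = 0.0692). Pdk4, a kinase that inhibits pyruvate dehydrogenase, gave 0.82 ± 0.23 (adjusted p = 0.0385), and 0.66 (adjusted p = 0.11) without 0 min P1D1. Pgam2, the muscle phosphoglycerate mutase, fell by 0.73 on the log2 scale (SE 0.15, adjusted p = 0.0147). Without 0 min P1D1 the list gave 2 genes that rose and 2 that fell. Without 120 min P2D2 it gave 8 that rose and 2 that fell, and without both arrays 4 and 2.

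Of 10 AP-1 factors tested, which act as dimers of Fos, Jun and Atf family proteins, 6 rose and 0 fell, and the median was 1.27. The count of rises was 4 on the deposited scale and 4 without both arrays that stand apart. Jun (0.07, adjusted p = 0.75), Mafk (0.30, adjusted p = 0.174), Fosb (1.81, adjusted p = 0.141) and Jund (0.99, adjusted p = 0.0831) did not pass. Fos had 2814, 2460, 2507 and 2680 at 120 min, against 378, 384, 401 and 268 at 0 min, a change of 2.83 ± 0.20 (adjusted p = 0.00037). Junb had 1534, 1427, 1542 and 1303 at 120 min, against 504, 451, 565 and 423 at 0 min (1.55 ± 0.16, adjusted p = 0.000821). Both genes were far apart between the groups on every array. Atf3, also a stress response factor, had 2218, 2191, 2247 and 4694 at 120 min, against 856, 1116, 544 and 646 at 0 min (1.79 ± 0.43, adjusted p = 0.0238), and P2D2 was far above its group. Maff, a small Maf protein, had 252, 206, 157 and 454 at 120 min, against 75, 102, 67 and 37 at 0 min (1.66 ± 0.40, adjusted p = 0.0235). Mafg, another small Maf, gave 0.41 ± 0.10 (adjusted p = 0.024), or 0.35 (adjusted p = 0.0636) without 0 min P2D2. Fosl1 passed only with 120 min P2D2, whose value was 888 against 421, 427 and 363 on the other 120 min arrays: its change was 0.92 ± 0.27 (adjusted p = 0.0486) with P2D2 and 0.60 (adjusted p = 0.102) without.

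Of 38 other immediate early genes tested, 16 rose and 0 fell, with a median of 0.32 (0.13 on the deposited scale). Nr4a1, an orphan nuclear receptor, had 1619, 1489, 1402 and 1914 at 120 min, against 334, 375, 438 and 429 at 0 min (1.98 ± 0.19, adjusted p = 0.000714). Ier2 had 1215, 1242, 1456 and 1499 at 120 min, against 594, 568, 685 and 519 at 0 min (1.17 ± 0.17, adjusted p = 0.00454). Zfp36, which binds AU-rich elements and speeds the decay of cytokine mRNAs, had 1800, 1862, 1775 and 1908 at 120 min, against 1006, 872, 968 and 1083 at 0 min (0.90 ± 0.09, adjusted p = 0.00065). These 3 genes kept their groups apart on every array, and P2D2 was the highest 120 min array for each. The related Zfp36l2 rose by 0.93 ± 0.08 (adjusted p = 0.000474), Cebpb, a leucine zipper factor, by 0.79 ± 0.08 (adjusted p = 0.00116), and Rgs2, which shuts off Gq signalling, by 0.95 ± 0.14 (adjusted p = 0.00509). Sik1, a salt-inducible kinase, had 1760, 1695, 1506 and 1662 at 120 min, against 66, 683, 556 and 533 at 0 min. Its change was 2.19 ± 0.35 (adjusted p = 0.00634), or 1.42 (adjusted p = 0.00454) without 0 min P1D1.

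Zfp36 is shown because it was among the most reproducible of these genes and its window holds a CArG box, the element read by serum response factor, marked in capitals. The window is chr1:92799059-92799358 on the minus strand of GRCr8, from RefSeq, 250 bases before to 50 after the start.
Zfp36: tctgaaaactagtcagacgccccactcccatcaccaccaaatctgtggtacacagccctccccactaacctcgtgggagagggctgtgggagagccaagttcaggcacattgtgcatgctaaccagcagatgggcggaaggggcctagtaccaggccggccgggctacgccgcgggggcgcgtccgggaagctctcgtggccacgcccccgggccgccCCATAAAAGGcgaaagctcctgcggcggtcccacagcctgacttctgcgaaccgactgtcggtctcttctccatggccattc
A CArG box was in 5 of the 38 promoters matched for the AP-1 and immediate early lists (13.2%), in 1.3% of those of tested genes and in 1.6% of all promoters. These lists were drawn up from known early genes, so that share is no independent result.

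The dual-specificity phosphatases and Sprouty proteins, which damp MAP kinase signalling, gave 3 rises and 1 fall in 14, with a median of 0.03 that was -0.19 on the deposited scale. Dusp1 had 2840, 2984, 2591 and 2924 at 120 min, against 347, 1790, 1530 and 1732 at 0 min. Its change was 1.30 ± 0.23 (adjusted p = 0.00837) with all arrays and 0.72 (adjusted p = 0.00371) without 0 min P1D1, and the groups were separate. Spry4 rose by 0.34 ± 0.06 (adjusted p = 0.00848). Dusp2 (0.89, adjusted p = 0.0478) and Dusp18 (-0.27, adjusted p = 0.0471) passed narrowly: without 120 min P2D1 Dusp2 gave 1.14 (adjusted p = 0.0621) and Dusp18 gave -0.12 (adjusted p = 0.558). Of 13 Kruppel-like factors 2 rose and 0 fell. Klf5, a growth-associated member, had 398, 545, 514 and 1128 at 120 min, against 87, 337, 334 and 316 at 0 min. It rose by 1.26 ± 0.24 (adjusted p = 0.0113), or 0.82 (adjusted p = 0.023) without 0 min P1D1. Klf2, a factor best known from endothelium and among the 15 largest rises over all genes, gave 2.13 ± 0.36 (adjusted p = 0.00747) on a dimmer probe set and 0.91 (adjusted p = 0.0804) without 0 min P1D1. Its brightest probe set did not pass (0.85 ± 0.38, adjusted p = 0.154). The second riser of the list, Klf4, gave 0.52 ± 0.15 (adjusted p = 0.0492), and 0.47 (adjusted p = 0.0791) without 0 min P1D1.

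Of 30 genes of the integrated stress response under ATF4, 4 rose and 0 fell, where 7.18% of all genes tested rose. The median was 0.21 against 0.03 over all genes (-0.02 against -0.20 on the deposited scale). Without 120 min P2D2, 6 rose, where 9.09% of all genes did. Without 0 min P1D1, 2 rose, where 6.71% of all genes did. Gdf15, a stress-induced cytokine, had 398, 265, 254 and 522 at 120 min, against 146, 166, 67 and 126 at 0 min (1.40 ± 0.28, adjusted p = 0.0121), with separate groups. Trib3, a pseudokinase induced by ATF4, gave 0.82 ± 0.21 (adjusted p = 0.0281), but 0.59 (adjusted p = 0.0778) without 0 min P1D1. Slc3a2, the heavy chain of amino acid exchangers, gave 0.32 (adjusted p = 0.0379), and 0.30 (adjusted p = 0.0501) without 0 min P1D1. Shmt2, of mitochondrial folate metabolism, gave 0.29 (adjusted p = 0.049), and 0.18 (adjusted p = 0.208) without 120 min P2D1. Atf4 itself had 5042, 5658, 4932 and 6416 at 120 min and 5581, 6000, 4641 and 4948 at 0 min (0.06 ± 0.09, adjusted p = 0.698). Ddit3, the pro-apoptotic factor CHOP, was higher on all 120 min arrays by 0.50 ± 0.15 and just missed (adjusted p = 0.0507). Of 22 chaperones of the endoplasmic reticulum 1 rose, Ero1a, and 0 rose without 0 min P1D1.

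Of 28 heat shock proteins and co-chaperones, 0 rose and 1 fell, with a median of 0.09 (-0.14 on the deposited scale). The gene that fell was Chordc1, a partner of Hsp90 (-0.34, adjusted p = 0.048), whose call ended without 120 min P2D1 (adjusted p = 0.0576). Hspa1a gave 1.5 ± 0.59 (adjusted p = 0.109) with all arrays and 0.76 (adjusted p = 0.208) without 120 min P2D2. Its co-chaperones were high on the same array. Dnajb1 had 1180, 1429, 1438 and 3289 at 120 min and 1766, 1797, 1739 and 1724 at 0 min, so that the first 3 arrays lay below 0 min and P2D2 above it. Hsph1 had 1802, 1682, 1810 and 3015 at 120 min and 1775, 1711, 1733 and 1809 at 0 min. Bag3 had 3469, 3546, 3499 and 5521 at 120 min and 3486, 3448, 3712 and 3609 at 0 min. Without P2D2 the changes of Dnajb1, Hsph1 and Bag3 were -0.36, 0.01 and -0.02, with adjusted p of 0.102, 0.951 and 0.916.

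Cytokines, chemokines and NF-kB genes gave 13 rises and 1 fall in 34, with a median of 0.41 (0.19 on the deposited scale). Cxcl2, a chemokine that draws neutrophils, had 1341, 1733, 1992 and 537 at 120 min, against 162, 188, 144 and 120 at 0 min (2.93 ± 0.24, adjusted p = 0.000474). Il1b had 391, 614, 1045 and 233 at 120 min, against 89, 78, 106 and 122 at 0 min (2.17 ± 0.19, adjusted p = 0.000483). Il1a had 179, 243, 323 and 99 at 120 min, against 17, 80, 61 and 61 at 0 min (1.68 ± 0.15, adjusted p = 0.000541). In all 3 genes P2D2 was the lowest 120 min array and the groups did not overlap, and without it the changes were 3.39, 2.69 and 2.07. Nfkbia, the NF-kB inhibitor that is also its target, had 1572, 1504, 1858 and 1325 at 120 min, against 956, 923, 707 and 641 at 0 min (0.95 ± 0.13, adjusted p = 0.0034). Ptgs2, the inducible cyclooxygenase, had 972, 1220, 1241 and 845 at 120 min, against 533, 587, 493 and 430 at 0 min (1.03 ± 0.15, adjusted p = 0.00492). Tnfaip2 rose by 0.55 ± 0.11 (adjusted p = 0.0128) on its brightest probe set, and 3 dimmer ones did not pass. The gene that fell was Tnip1, a partner of A20 (-0.21 ± 0.06), named after its values were seen, whose call ended without 120 min P2D1 (adjusted p = 0.064). The chemokine Ccl4 gave 1.05 ± 0.23 (adjusted p = 0.0187), and 0.69 (adjusted p = 0.0741) without 120 min P2D1. Macrophages are a known source of these cytokines. Of the 13 macrophage markers tested 0 rose and 0 fell, with a median of 0.18 against 0.03 over all genes. The summed level of the 15 markers was 9550 to 11010 at 120 min and 7806 to 9657 at 0 min. The part of macrophages in these rises was not tested.

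The promoters of Cxcl2 and Nfkbia are shown because both genes rose and both windows hold an NF-kB site, marked in capitals. They are chr14:17467206-17467505 and chr6:78597023-78597322, both on the minus strand of GRCr8, from RefSeq.
Cxcl2: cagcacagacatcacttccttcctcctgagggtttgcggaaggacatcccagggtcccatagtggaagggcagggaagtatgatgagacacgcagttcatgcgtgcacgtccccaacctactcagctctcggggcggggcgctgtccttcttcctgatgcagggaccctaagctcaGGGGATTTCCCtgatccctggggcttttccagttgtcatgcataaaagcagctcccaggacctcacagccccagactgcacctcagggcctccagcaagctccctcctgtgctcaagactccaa
Nfkbia: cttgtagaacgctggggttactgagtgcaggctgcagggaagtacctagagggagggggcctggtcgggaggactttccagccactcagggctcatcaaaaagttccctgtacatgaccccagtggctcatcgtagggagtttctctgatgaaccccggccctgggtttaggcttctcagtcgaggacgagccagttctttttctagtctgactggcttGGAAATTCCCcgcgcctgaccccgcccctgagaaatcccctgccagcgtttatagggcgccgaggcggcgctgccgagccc
At Cxcl2 the capitals merge overlapping matches. An NF-kB site was in 17 of the 27 promoters matched for the cytokine and NF-kB list (63.0%), which was drawn up from known NF-kB genes, in 8.1% of those of tested genes and in 6.2% of all promoters. It was in 12.8% of the promoters of genes that rose and in 6.3% of those of genes that fell.

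Of 25 antioxidant and NRF2 genes 5 rose and 0 fell, with a median of 0.20 (0.00 on the deposited scale). Hmox1, which breaks down heme, had 4455, 4115, 4562 and 6751 at 120 min, against 1489, 1874, 1031 and 896 at 0 min (1.93 ± 0.32, adjusted p = 0.00714). The metallothionein Mt2A, which binds zinc and copper, had 5538, 5156, 5946 and 7303 at 120 min, against 2476, 2191, 1495 and 1596 at 0 min (1.64 ± 0.36, adjusted p = 0.0171). For both genes P2D2 was the highest array and the groups were separate, and the values without it were 1.79 and 1.56. Gclc, the rate-limiting enzyme of glutathione synthesis, gave 0.53 ± 0.12 (adjusted p = 0.0204), but 0.25 (adjusted p = 0.0661) without 0 min P1D1. Tkt, of the pentose phosphate pathway, gave 0.32 (adjusted p = 0.0291), and 0.25 (adjusted p = 0.0875) without 120 min P2D1. Prdx5, a peroxiredoxin, gave 0.22 (adjusted p = 0.036), and 0.18 (adjusted p = 0.0897) without 0 min P2D2.

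Genes of G protein signalling moved in both directions, 6 up and 4 down of 39. Rgs4, which speeds the shut-off of Gi and Gq, had 2357, 2028, 1751 and 1605 at 120 min, against 268, 852, 423 and 340 at 0 min (2.12 ± 0.23, adjusted p = 0.00116). Rgs16, of the same family, rose by 0.85 ± 0.12 (adjusted p = 0.00484), and Gng11, a gamma subunit, by 0.80 ± 0.13 (adjusted p = 0.0061). Gnaq, the Gq alpha subunit itself, had 22, 23, 5 and 84 at 120 min and 190, 184, 79 and 182 at 0 min. The groups overlapped on 1 pair of arrays, and the fall was -1.98 ± 0.36 (adjusted p = 0.00954), or -1.43 (adjusted p = 0.0548) without 120 min P2D1. The alpha-1D adrenergic receptor Adra1d had 219, 130, 188 and 161 at 120 min, against 274, 228, 530 and 373 at 0 min (-0.90 ± 0.21, adjusted p = 0.0204), with -0.73 (adjusted p = 0.0851) without 120 min P1D2. Plcb4, a phospholipase C, and Prkaca, a catalytic subunit of protein kinase A, were named after their values were seen. Plcb4 gave -0.42, or -0.33 (adjusted p = 0.0921) without 0 min P1D2, and Prkaca gave -0.25, or -0.22 (adjusted p = 0.0815) without 120 min P1D2.

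Among 29 calcium handling genes 3 rose and 1 fell, where 7.18% of all genes tested rose and 4.07% fell. The 3 that rose were RGK GTPases, small proteins that restrain L-type calcium channels. Rrad had 2293, 2343, 2348 and 1619 at 120 min, against 302, 426, 623 and 448 at 0 min (2.25 ± 0.45, adjusted p = 0.0125). Gem had 980, 1097, 690 and 1113 at 120 min, against 259, 378, 453 and 273 at 0 min (1.48 ± 0.23, adjusted p = 0.00529). Rem1 rose by 0.56 ± 0.11 (adjusted p = 0.0113). All 3 had separate groups. Cacna2d1, the auxiliary subunit of those channels, had 1308, 1240, 1030 and 1399 at 120 min, against 1787, 1732, 1499 and 1943 at 0 min. It gave -0.48 ± 0.13 (adjusted p = 0.0385), or -0.37 (adjusted p = 0.126) without 120 min P2D1. Of 17 other channel genes 3 rose and 0 fell, led by Kcnk3, a background potassium channel, at 596, 556, 562 and 623 at 120 min, against 91, 307, 225 and 267 at 0 min (1.45 ± 0.16, adjusted p = 0.00167). Kcnj3, an inward rectifier gated by G proteins, gave 0.33 (adjusted p = 0.0232), and 0.26 (adjusted p = 0.0523) without 120 min P2D2. Kcnd2, of the transient outward current, gave 0.36 (adjusted p = 0.0481), and 0.25 (adjusted p = 0.209) without 0 min P2D1. Another probe set went the other way and did not pass for Kcnj3 (-0.71, adjusted p = 0.137) and Kcnd2 (-0.25, adjusted p = 0.247). That of Kcnk3 did not pass either (0.38, adjusted p = 0.269).

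Of 35 sarcomere and natriuretic peptide genes 2 rose and 2 fell, with a median of -0.03, where 7.18% of all genes rose and 4.07% fell. On the deposited scale 1 rose and 11 fell, with a median of -0.28 against -0.20 over all genes. Lrrc10, a cardiac sarcomere-associated protein, fell to 397, 343, 314 and 231 at 120 min, against 714, 657, 1227 and 772 at 0 min (-1.33 ± 0.25, adjusted p = 0.0109). Xirp1, an actin-binding protein of the intercalated disc, had 3537, 3703, 2983 and 4240 at 120 min, against 2212, 2356, 2164 and 2255 at 0 min (0.67 ± 0.09, adjusted p = 0.00394). Myl4, the atrial essential light chain, gave -0.38 ± 0.11 (adjusted p = 0.0422), and -0.35 (adjusted p = 0.0665) without 120 min P2D1. The other rise was Synpo, whose probe sets disagree as given with the largest falls. The natriuretic peptide genes Nppa and Nppb were at the bright end of the arrays, with changes of -0.03 ± 0.05 (adjusted p = 0.702) and 0.02 ± 0.05 (adjusted p = 0.837). Of the 12 cardiomyocyte markers 0 rose and 0 fell, with a median of -0.06, and on the deposited scale 4 fell.

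**Figure D2:**
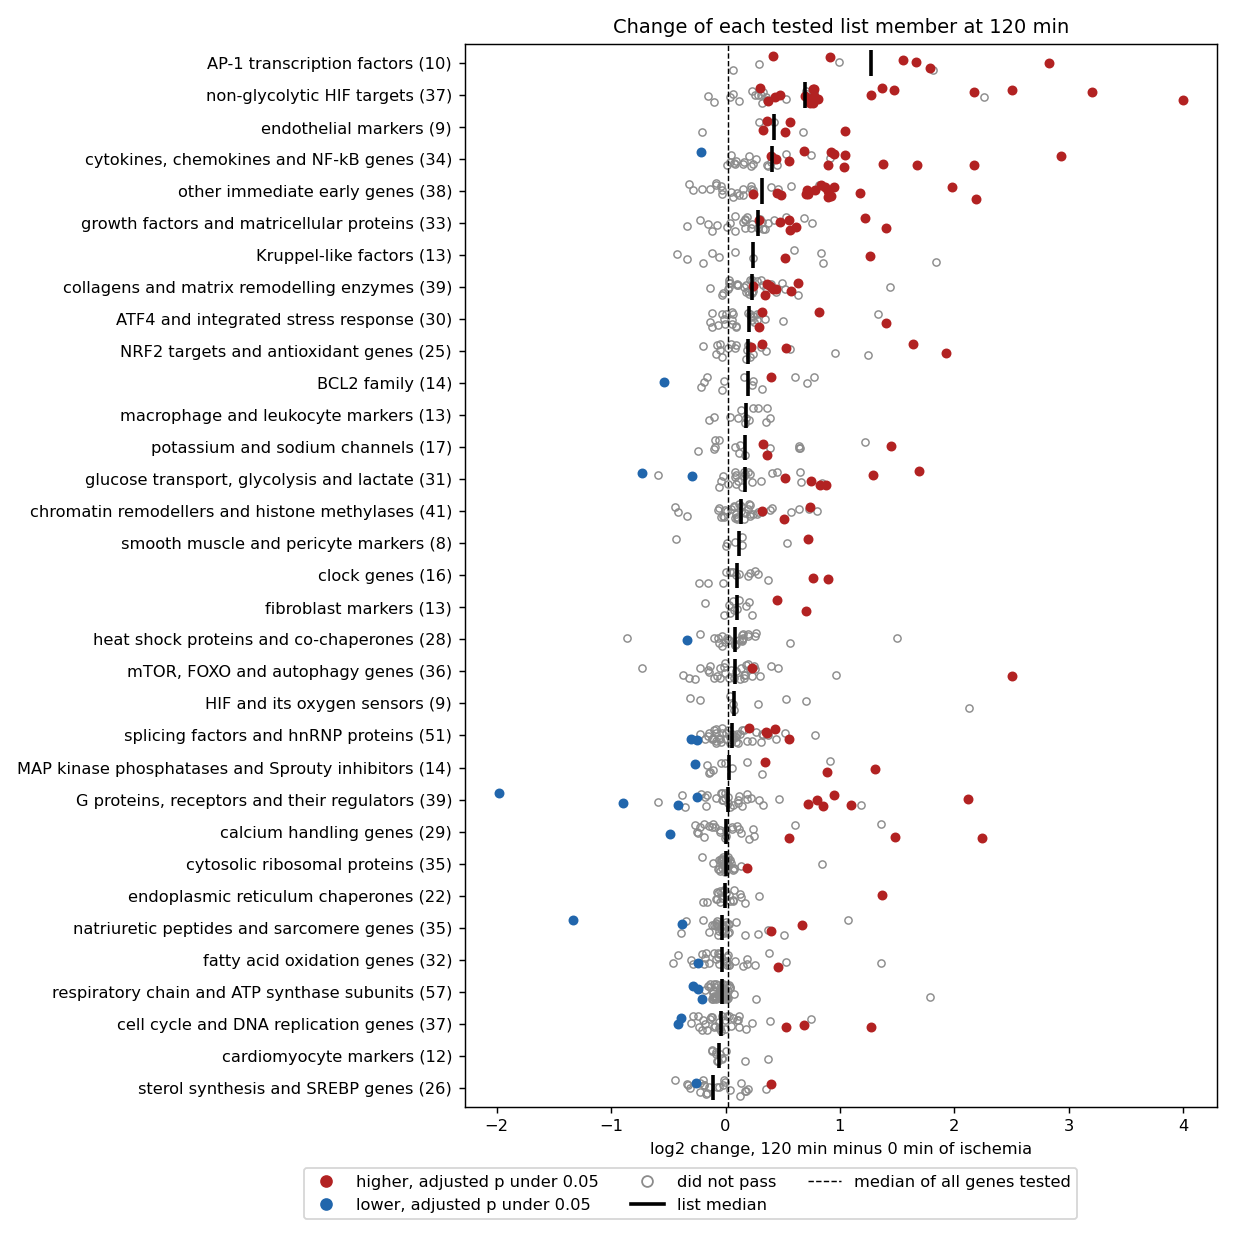
Log2 change at 120 min against 0 min of each tested member of 33 gene lists (points), the list median (bar) and the median of all genes (dashed line, 0.03). The AP-1 list (median 1.27) and the HIF targets (0.69) lie farthest above the line, and the sarcomere, respiratory chain and ribosomal lists lie close to it.

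Of 33 growth and angiogenic factors 7 rose and 0 fell, and on the deposited scale 3 rose and 2 fell. Gdf15, given above, changed most. Igfbp3, which binds insulin-like growth factors and was named after its values were seen, had 4849, 4825, 4124 and 3685 at 120 min, against 2811, 2824, 1672 and 897 at 0 min (1.22 ± 0.32, adjusted p = 0.0299), with separate groups. Igf2 had 983, 1154, 948 and 1048 at 120 min, against 713, 652, 706 and 595 at 0 min (0.62 ± 0.09, adjusted p = 0.00453). Vegfc, a lymphatic growth factor, rose by 0.48 ± 0.08 (adjusted p = 0.00783), and Bmp6 by 0.56 ± 0.13 (adjusted p = 0.0199). Fgf10 gave 0.57 (adjusted p = 0.0107) and 0.38 (adjusted p = 0.0809) without 0 min P1D1, and Ereg, an EGF receptor ligand, gave 0.29 (adjusted p = 0.0235) and 0.20 (adjusted p = 0.0962) without 120 min P2D1. Of 39 collagens and matrix genes 8 rose and 0 fell, with a median of 0.24, but on the deposited scale 0 rose and the median was 0.01. Col6a2, a microfibrillar collagen chain, had 2459, 2401, 2037 and 2341 at 120 min, against 1711, 1438, 1640 and 1197 at 0 min (0.63 ± 0.12, adjusted p = 0.0115). Col5a1 rose by 0.36 ± 0.08 (adjusted p = 0.0154), and the matrix protease Adamts4 by 0.44 ± 0.11 (adjusted p = 0.0237). Lamc1, a laminin chain, gave 0.41 (adjusted p = 0.0213) and 0.19 (adjusted p = 0.137) without 0 min P1D1. Col4a2 gave 0.35 (adjusted p = 0.0223) and 0.28 (adjusted p = 0.0659) without 0 min P2D2, and Bgn, a small proteoglycan, 0.24 (adjusted p = 0.0303) and 0.20 (adjusted p = 0.0644) without that array. Of 9 endothelial markers 5 rose and 0 fell, with a median of 0.42, and on the deposited scale 1 rose. Egfl7, counted there on its brightest probe set, did not pass (-0.20, adjusted p = 0.364), while a dim one fell, as given with the largest falls. Esam, a junction protein of endothelium, had 611, 629, 550 and 730 at 120 min, against 421, 442, 412 and 397 at 0 min (0.57 ± 0.10, adjusted p = 0.00943), and the receptor kinase Tie1 rose by 0.52 ± 0.10 (adjusted p = 0.0102). Pecam1 (1.04, adjusted p = 0.0208) and Tek (0.33, adjusted p = 0.0157) rose too, and Eng gave 0.36 (adjusted p = 0.0242), or 0.26 (adjusted p = 0.122) without 0 min P1D2. Of 13 fibroblast markers 2 rose and 0 fell, with a median of 0.10. They were Pdgfra (0.45, adjusted p = 0.0392), at 0.29 (adjusted p = 0.142) without 120 min P2D1, and Ddr2 (0.70, adjusted p = 0.0418), at 0.33 (adjusted p = 0.0634) without 0 min P1D1. The 1 of 8 smooth muscle and pericyte markers that passed was Rgs5 (0.72, adjusted p = 0.0489), at 0.67 (adjusted p = 0.0765) without 0 min P1D2. The summed level of the 11 endothelial markers was 4419 to 5659 at 120 min and 3309 to 4505 at 0 min, so it moved with these groups, as did the fibroblast sum given above, and their part in them was not tested.

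Of 57 respiratory chain and ATP synthase genes 0 rose and 3 fell, with a median of -0.03, and 14 of the 57 lay below 0 min on all 4 arrays, where 8.24% of all genes did. On the deposited scale 14 of the 57 fell, where 13.2% of all genes did. Uqcrc2, a core subunit of complex III, had 7635, 7483, 7256 and 7483 at 120 min, against 8373, 9130, 8814 and 8970 at 0 min (-0.24 ± 0.06, adjusted p = 0.0221). Ndufs1, of complex I, fell by 0.28 on the log2 scale (SE 0.06, adjusted p = 0.0166). Cox7c, of complex IV, gave -0.21 (adjusted p = 0.0364), or -0.18 (adjusted p = 0.0699) without 120 min P2D1. Ppargc1a, the coactivator PGC-1alpha that drives mitochondrial genes, fell to 152, 147, 150 and 80 at 120 min, against 308, 414, 428 and 371 at 0 min (-1.45 ± 0.28, adjusted p = 0.0118) on its dimmest probe set. The brightest one gave -0.42 ± 0.17 (adjusted p = 0.113) and another -0.42 ± 0.20 (adjusted p = 0.185), and neither passed. Its partner receptor Esrra rose, at 790, 835, 702 and 711 at 120 min, against 456, 572, 601 and 573 at 0 min (0.46 ± 0.11, adjusted p = 0.0232). The fatty acid oxidation list of 32 held that rise and 1 fall, Acadm (-0.24, adjusted p = 0.0455), at -0.22 (adjusted p = 0.0701) without 120 min P1D2. Of 26 sterol genes, the regulator Srebf2 rose and the synthase Fdps fell. For both lists, 7.18% of all genes rose and 4.07% fell beside these counts. Srebf2 gave 0.40 (adjusted p = 0.0254), or 0.29 (adjusted p = 0.0732) without 0 min P1D2. Fdps gave -0.26 (adjusted p = 0.0411), or -0.23 (adjusted p = 0.0764) without 0 min P1D1. On the deposited scale 0 of the 32 rose and 6 fell, and 0 of the 26 rose and 8 fell, where 1.41% of all genes rose and 13.2% fell. Of 36 mTOR, FOXO and autophagy genes, Ddit4 and Tfeb rose, a share near the 7.18% of all genes. Tfeb, a lysosomal regulator, gave 0.23 (adjusted p = 0.0344), -0.01 on the deposited scale and 0.19 (adjusted p = 0.0621) without 0 min P1D2.

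Among 51 splicing genes 5 rose and 2 fell, where 7.18% of all genes tested rose and 4.07% fell. On the deposited scale 0 of the 51 rose and 6 fell, where 1.41% of all genes rose and 13.2% fell. Among the CDC-like kinases, which phosphorylate splicing factors, Clk4 had 658, 693, 725 and 673 at 120 min, against 438, 497, 489 and 426 at 0 min (0.56 ± 0.07, adjusted p = 0.00198), and Clk1 gave 0.44 ± 0.09 (adjusted p = 0.0149), while Clk2 did not pass (0.26, adjusted p = 0.137). Snrnp70, of the U1 particle, gave 0.36 ± 0.06 (adjusted p = 0.00604). Clk4 (adjusted p = 0.0657), Clk1 (adjusted p = 0.23) and Snrnp70 (adjusted p = 0.27) did not pass on the deposited scale. Clk3 gave 0.35 (adjusted p = 0.0275), or 0.27 (adjusted p = 0.114) without 120 min P2D1. Srsf11 gave 0.21 (adjusted p = 0.036), -0.01 on the deposited scale and 0.15 (adjusted p = 0.138) without 120 min P2D1. Srsf1 gave -0.25 (adjusted p = 0.0323), or -0.19 (adjusted p = 0.0775) without 120 min P1D2, and Hnrnpm, named after its values were seen, gave -0.30, or an adjusted p of 0.0542 without 120 min P2D1. Of 37 cell cycle genes 3 rose and 2 fell, near the shares over all genes. The inhibitor Cdkn1a had 2368, 2042, 2025 and 3555 at 120 min, against 1330, 1413, 1619 and 1668 at 0 min (0.69 ± 0.14, adjusted p = 0.0139), and Ccng2, an atypical cyclin, had 621, 712, 646 and 663 at 120 min, against 260, 191, 321 and 298 at 0 min (1.28 ± 0.26, adjusted p = 0.014). Cdkn1c, another inhibitor, gave 0.53 (adjusted p = 0.0354), or 0.48 (adjusted p = 0.063) without 0 min P1D2. Cdk2 gave -0.39 (adjusted p = 0.03), or -0.26 (adjusted p = 0.207) without 0 min P1D2, and Tyms, of thymidylate synthesis, -0.41 (adjusted p = 0.0356), or -0.27 (adjusted p = 0.265) without 0 min P2D2. In the BCL2 family of 14, 1 gene rose and 1 fell, where 7.18% of all genes rose and 4.07% fell. The gene that rose, the pro-apoptotic Bbc3 (Puma), had 805, 842, 952 and 784 at 120 min, against 669, 610, 632 and 632 at 0 min (0.40 ± 0.06, adjusted p = 0.00562). Bak1, a pore-forming member, had 327, 348, 275 and 491 at 120 min and 553, 518, 539 and 470 at 0 min, and gave -0.54 ± 0.13 (adjusted p = 0.0219), or -0.34 (adjusted p = 0.211) without 120 min P2D1. Nfil3, a repressor of clock genes, rose by 0.90 ± 0.14 (adjusted p = 0.00549), and with Bhlhe40 made 2 rises in 16 clock genes. Of 41 chromatin regulators, Kdm3a, Kdm6b and Chd1 rose and 0 fell. The share that rose was near the 7.18% of all genes. Kdm6b gave 0.51 (adjusted p = 0.0319), or 0.43 (adjusted p = 0.0711) without 120 min P2D1, and Chd1 0.32 (adjusted p = 0.0349), or 0.27 (adjusted p = 0.0721) without 0 min P2D2. Of 35 cytosolic ribosomal proteins 1 passed upward and 0 downward, Rpl22, at 0.19 (adjusted p = 0.0324), -0.05 on the deposited scale and 0.17 (adjusted p = 0.0661) without 120 min P1D2.

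Of the 15 largest falls over all genes, 2, those of Ppargc1a and Ripor1, kept their call and moved by at most 1.5 times with each array left out in turn, and the other 13 did not. Paqr8, a membrane progestin receptor, had 209, 202, -31 and 516 at 120 min, against 646, 595, 878 and 701 at 0 min (-2.32 ± 0.39, adjusted p = 0.0076). It was lower on every 120 min array, with -1.06 without P2D1 and -3.58 without P2D2. Other tested probe sets of Paqr8 did not pass, at 0.21 (adjusted p = 0.721) and -0.37 (adjusted p = 0.0699). Etnk1, an ethanolamine kinase, had 23, 70, 2 and 142 at 120 min, against 198, 188, 166 and 214 at 0 min (-1.89 ± 0.29, adjusted p = 0.00549), with -1.11 (adjusted p = 0.0965) without 120 min P2D1. Another probe set of Etnk1 did not pass (-0.13, adjusted p = 0.598). Cdkn1b, the cyclin-dependent kinase inhibitor p27, had 148, 135, 164 and 133 at 120 min, against 1899, 255, 258 and 277 at 0 min, and gave -1.49 ± 0.31 (adjusted p = 0.0143) with all arrays and -0.79 (adjusted p = 0.0028) without 0 min P1D1. Its brightest probe set did not pass and went the other way (0.75 ± 0.34, adjusted p = 0.158). Tcea1, a transcription elongation factor, had 79, 60, 93 and 24 at 120 min and 2831, 59, 123 and 118 at 0 min, so its -1.74 ± 0.39 (adjusted p = 0.018) rested on P1D1, and without it the change was -0.43 (adjusted p = 0.302). Egfl7, an angiogenic matrix protein, had 135, 210, -6 and 67 at 120 min and 464, 198, 524 and 531 at 0 min (-2.35 ± 0.57, adjusted p = 0.0238), with -2.06 (adjusted p = 0.0504) without 0 min P1D1. This was a dim probe set, and the brightest one of Egfl7 did not pass (-0.20 ± 0.15, adjusted p = 0.364). Ripor1 had 29, 75, 30 and 67 at 120 min, against 117, 292, 124 and 117 at 0 min (-1.40 ± 0.31, adjusted p = 0.018). Synpo, an actin-associated protein, gave opposite calls, -2.37 ± 0.69 (adjusted p = 0.0438) on a dim probe set and 0.40 ± 0.12 (adjusted p = 0.0459) on its brightest, so no direction is given for it. The dim set gave -1.59 (adjusted p = 0.219) without 120 min P1D2, and the bright one 0.23 (adjusted p = 0.286) without 120 min P2D1.

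The other genes among the 15 largest falls were Cdca4, Tle5, Sipa1l2, Cdk14, Mcm3ap and Rock2, with changes of -1.86, -1.72, -1.71, -1.59, -1.55 and -1.43. Other tested probe sets did not pass for Cdca4 (0.20), Sipa1l2 (0.61), Cdk14 (-0.19), Mcm3ap (0.51) and Rock2 (0.20, -0.12 and 0.42). Rock2 kept its call in 4 of the 8 fits that left out 1 array. Without 0 min P1D1, Tle5 gave -0.58, Sipa1l2 -1.02, Mcm3ap -0.82 (adjusted p = 0.159) and Rock2 -0.90 (adjusted p = 0.13), and another probe set of Tle5 rose (0.49, adjusted p = 0.018). Without 120 min P2D1, Cdca4 gave -1.03 (adjusted p = 0.273) and Cdk14 gave -0.65 (adjusted p = 0.411), and Sipa1l2 had an adjusted p of 0.0566. The call of Tle5 ended without 0 min P1D2 (adjusted p = 0.0512), a fit that leaves P1D1 alone for the first preparation at 0 min. With each of the 8 arrays left out in turn, the change of Tle5 ran from -2.85 to -0.58. The other genes among the 15 largest rises were Ina, H1f2, Drp2 and Ndufa4l2. Ina, an intermediate filament protein, had 165, 201, 179 and 207 at 120 min, against 5, -74, -144 and 117 at 0 min (2.81 ± 0.48, adjusted p = 0.00797), with 1.57 when 64 was added and 2.04 (adjusted p = 0.0699) without 0 min P2D1. Ndufa4l2, a mitochondrial protein known as a HIF-1 target, had 1780, 1434, 1495 and 528 at 120 min and 576, 446, 188 and 87 at 0 min (2.13 ± 0.63, adjusted p = 0.0481), with 1.76 (adjusted p = 0.115) without 120 min P2D1. P2D2 lay within the 0 min range for Ndufa4l2, and the other 120 min arrays lay above it. H1f2, a linker histone, gave 2.15 (adjusted p = 0.0403) and 0.46 (adjusted p = 0.0203) without 0 min P1D1. Its call ended without 0 min P1D2 (adjusted p = 0.0758), a fit that leaves P1D1 alone for the first preparation at 0 min. With each of the 8 arrays left out in turn, the change of H1f2 ran from 0.46 to 3.85. Drp2, a dystrophin-related protein, gave 2.13 (adjusted p = 0.00776), and 1.23 (adjusted p = 0.227) without 0 min P2D1.

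**Figure D3:**
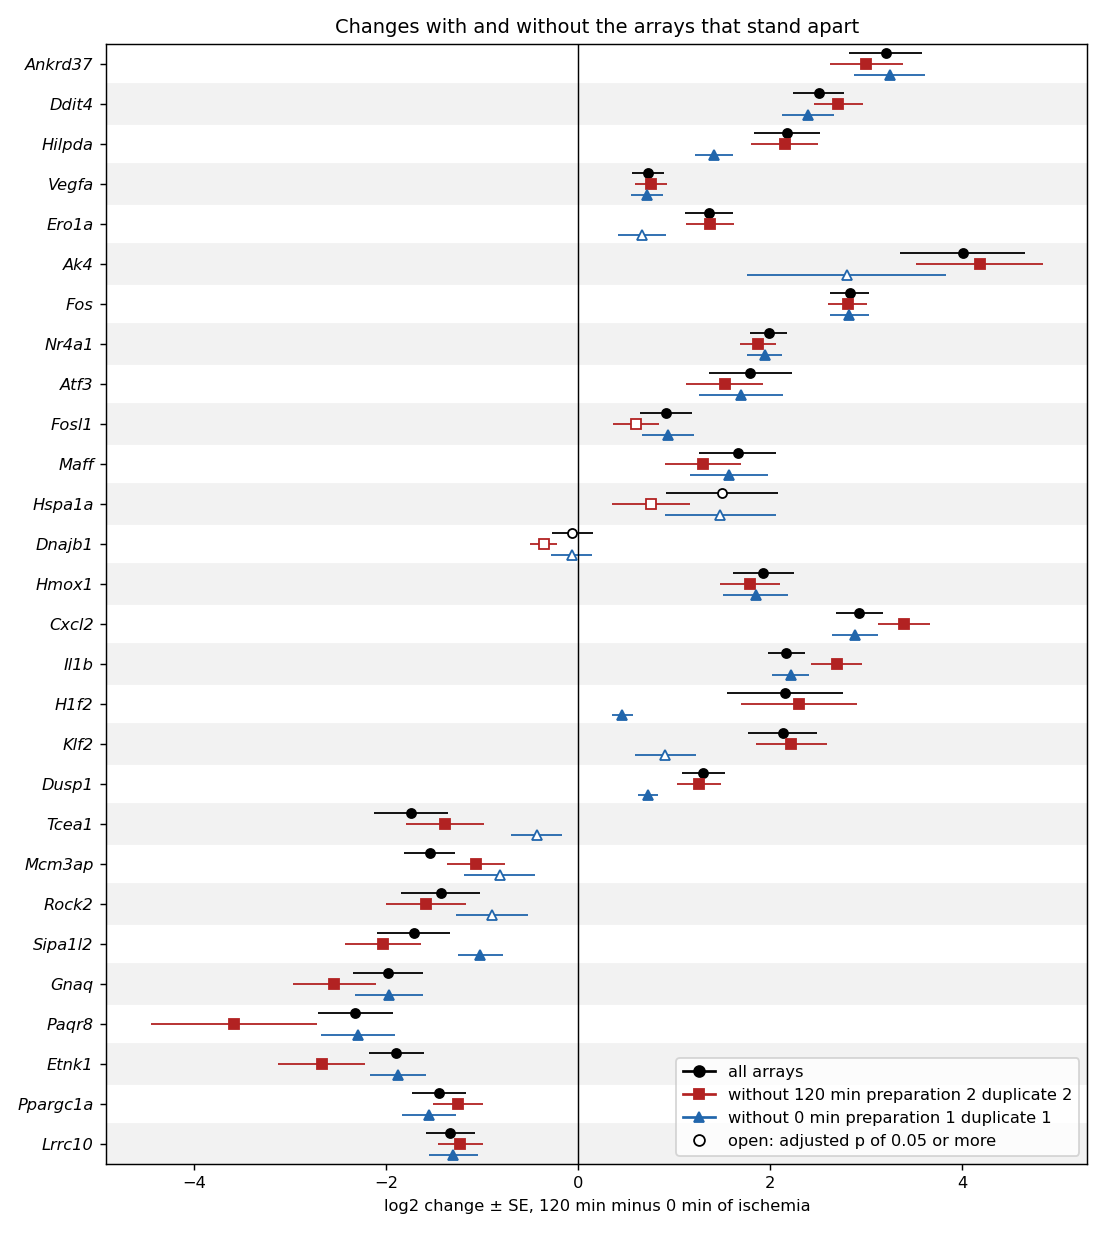
Log2 change at 120 min against 0 min, with its standard error, of 28 genes fitted with all arrays, without 120 min P2D2 and without 0 min P1D1. Genes such as Fos, Nr4a1 and Vegfa move little. The rises of Ak4, Ero1a, Klf2, Hilpda, H1f2 and Dusp1 shrink without 0 min P1D1, as do the falls of Tcea1, Mcm3ap, Sipa1l2 and Rock2. Without 120 min P2D2, Hspa1a and Fosl1 shrink, while the rises of Cxcl2 and Il1b and the fall of Paqr8 grow.

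Shorter ischemia gives the course that led to these values. All times were fitted against the same 0 min arrays, so the changes share them. The median change of the 37 HIF targets was 0.64, 0.61, 0.57 and 0.69 at 10, 30, 60 and 120 min. That of the 10 AP-1 genes was 0.21, 0.40, 0.78 and 1.27, and that of the 34 cytokine and NF-kB genes 0.06, 0.08, 0.17 and 0.41. Vegfa changed by 0.70, 0.64, 0.68 and 0.73, Fos by 0.54, 2.28, 2.78 and 2.83, and Nr4a1 by -0.19, 0.52, 1.11 and 1.98 over the 4 times. The collagen and matrix genes had medians of -0.02, -0.03, -0.03 and 0.24.

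**Figure D4:**
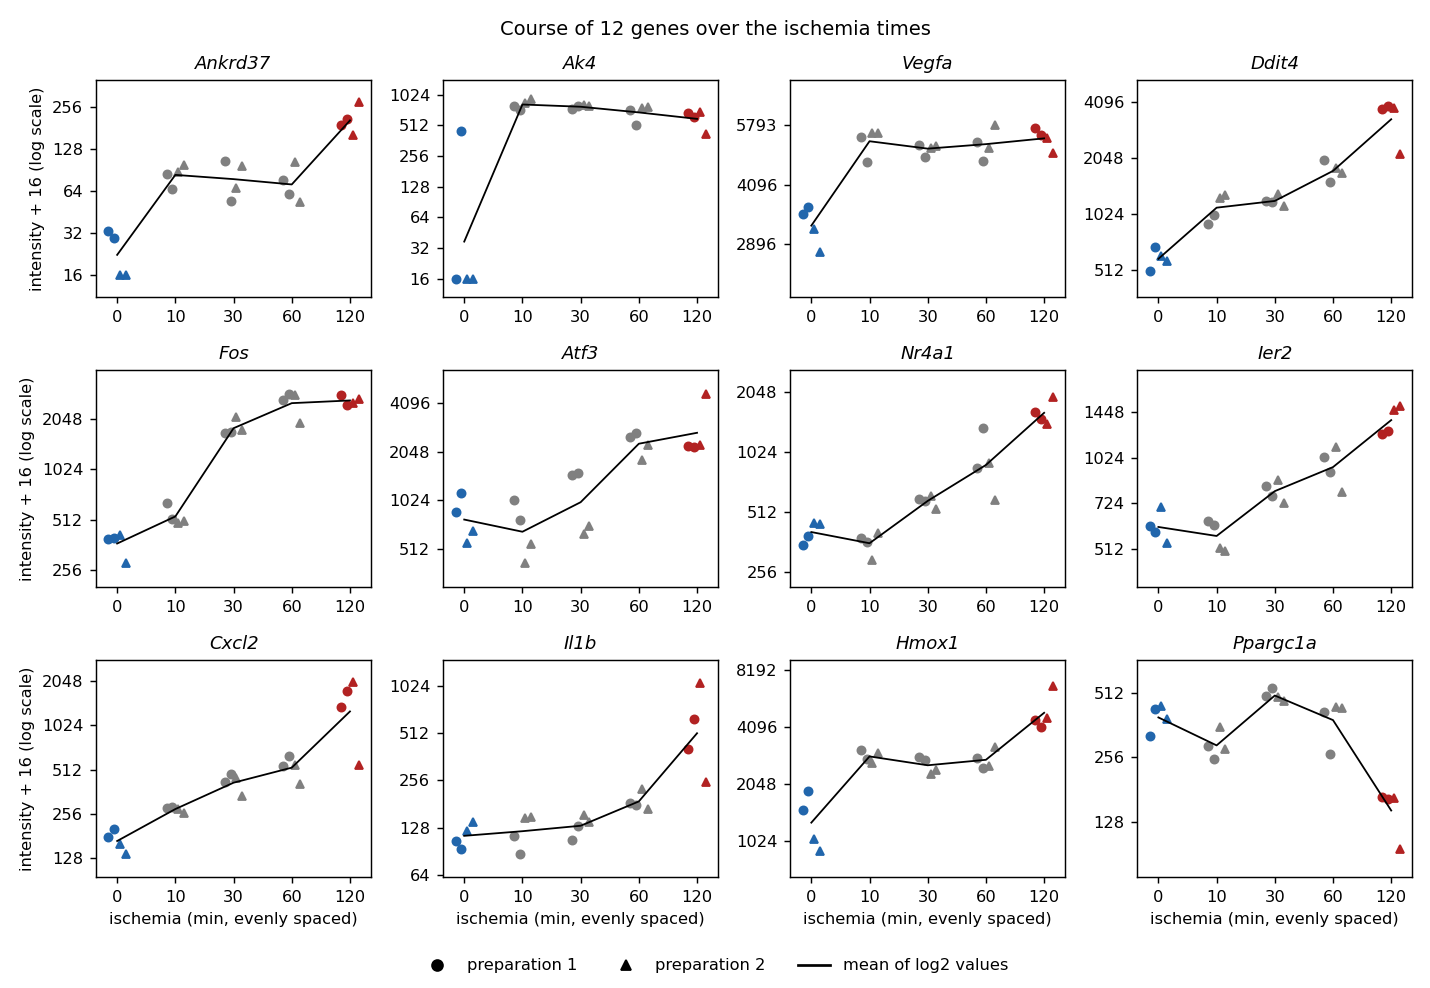
Normalized intensity plus 16 (log axis) of 12 genes at 0, 10, 30, 60 and 120 min of ischemia (evenly spaced), with circles and triangles for the preparations and a line through the means of the log2 values. Vegfa and Ak4 are close to their 120 min level at 10 min, Fos at 60 min, and Il1b and Cxcl2 are highest at 120 min.

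Set directly against 60 min, 120 min had 510 probe sets changed (2.74%), 287 upward (1.54%) and 223 downward (1.2%). The count depended on the processing: it was 14 on the deposited scale, 103 without the preparation block and 3 with the ischemia arm fitted alone. Of the 14 genes named from this comparison as passing, 2 passed on the deposited scale, 5 without the block and 0 with the ischemia arm alone. Read by gene, 175 rose (1.67%) and 79 fell (0.754%), and 21.5% of probe sets had an unadjusted p below 0.05. Of the HIF targets and of the AP-1 factors 0 passed, while 6 cytokine and NF-kB genes, 4 other immediate early genes and 3 matrix genes rose. Of these lists, 1 cytokine gene and 0 of the immediate early and matrix genes rose on the deposited scale. Il1b had 391, 614, 1045 and 233 at 120 min, against 167, 161, 210 and 153 at 60 min (1.44 ± 0.19, adjusted p = 0.0096). Cxcl2 had 1341, 1733, 1992 and 537 at 120 min, against 526, 616, 535 and 396 at 60 min (1.27, adjusted p = 0.0286). P2D2 lay within or just above the 60 min range for both, and without 120 min P2D1 they gave 0.92 (adjusted p = 0.123) and 0.81 (adjusted p = 0.197). The chemokine Ccl4 had 485, 704, 904 and 325 at 120 min, against 257, 258, 190 and 204 at 60 min (1.27, adjusted p = 0.0275), and 0.91 (adjusted p = 0.0654) without 120 min P2D1. Ppargc1a had 152, 147, 150 and 80 at 120 min, against 402, 249, 424 and 421 at 60 min (-1.40, adjusted p = 0.0327), with an adjusted p of 0.0593 without 60 min P1D1. Pfkfb3 rose by 1.19 (adjusted p = 0.0307), and Zfp36l2 by 0.59 (adjusted p = 0.0091). Fos (0.05, adjusted p = 0.915) and Vegfa (0.05, adjusted p = 0.904) did not pass. Ddit4 missed (0.93, adjusted p = 0.0848) and passed without 120 min P2D2 (adjusted p = 0.0391). The largest rise, Uox, the urate oxidase gene, had 172, 228, 204 and 212 at 120 min, against -4, -18, -15 and 10 at 60 min (3.60, adjusted p = 0.00865), yet its 120 min values overlapped 0 min, at 148, 272, 145 and 144. Tmem144 (2.58) and Tpsb2, a mast cell tryptase (2.25), were likewise higher than at 60 min and overlapped 0 min, with adjusted p of 0.073 for Tmem144 without 60 min P2D2 and 0.295 for Tpsb2 without 60 min P1D1. The largest falls against 60 min were Egfl7 (-2.89), Cdca4 (-1.64), Clcc1 (-1.63), Rlim (-1.58) and Gnaq (-1.56), all on dim probe sets. Egfl7 kept its call with each 120 or 60 min array left out. Without 120 min P2D1 the adjusted p was 0.457 for Cdca4, 0.124 for Rlim and 0.194 for Gnaq, and without 120 min P1D1 it was 0.252 for Clcc1. Against 0 min Rlim gave -1.34 ± 0.25 (adjusted p = 0.0105), and -0.82 (adjusted p = 0.147) without 120 min P2D1.

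The reperfusion arm has its own 0 min arrays, and its change at 120 min was set beside that of ischemia alone. Ischemia and reperfusion gave 1336 probe sets changed (7.17%), 651 upward (3.5%) and 685 downward (3.68%). Fos changed by 2.83 in ischemia alone and by 2.37 with reperfusion, Cxcl2 by 2.93 and 2.45, Nr4a1 by 1.98 and 1.01, Ankrd37 by 3.20 and 1.10, and Atf3 by 1.79 and 3.05. Of these differences, and of all 18625 probe sets, 0 passed limma's test of the interaction between arm and time, while 1944 (10.4%) had an unadjusted p below 0.05. The reperfusion array labelled 120 min P2D1 stood apart in the opposite way to ischemia 120 min P2D2: its Hspa1a was 847, against 9726, 9450 and 8156 on P1D1, P1D2 and P2D2 of that group. With that reperfusion array left out alone, 7 probe sets passed. With both of these arrays left out, 123 probe sets passed (0.66%), 36 higher and 87 lower in the change of ischemia alone. Hspa1a was among them, at -3.20 (adjusted p = 0.000522), as were Dnajb1 at -1.08 (adjusted p = 0.000729) and Cebpd, an early leucine zipper factor, at 1.03 (adjusted p = 0.0188), the last chosen after its values were seen. The pair was picked by these same expression values, so those calls are a description and no independent test.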

How the data were processed

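Per the labels' protocols, RNA from spin columns was copied into biotinylated cRNA with a modified Eberwine method. The deposited intensities were linear probe set values between -1725 and 17404. Since 15.8% of them were negative, some background or mismatch subtraction preceded deposit; the algorithm and its scaling: not given in the sources used here. Of 31042 probe sets 20826 had 1 gene symbol in the platform annotation, 436 several and 9780 none, and only those with 1 were named. Intensities were quantile-normalized over the 40 arrays, set to a floor of 0, and transformed as log2(value + 16). The 18625 probe sets (10483 genes) whose mean exceeded 6.48, the 40th percentile, or 73.2 as an intensity, entered the test. On the 8 arrays 0.185% of tested values lay at the floor. Duplicates were averaged, and limma 3.58.1 in R 4.3.3 fitted all 10 groups with preparation as a block (9 residual degrees of freedom, median standard error 0.118). Adjusted p-values are Benjamini-Hochberg over all tested probe sets. Scripts were tested on simulated data.

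Preparations are paired because the labels name them. The difference between preparations correlated 0.04 between the 120 and 0 min groups and 0.18 in the median over the 45 pairs of groups, of which 34 were above 0.1. No pair of arrays was identical (0 found).

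Named genes were the 15 largest rises and falls called with and without 120 min P2D2 and of 1 sign in both preparations, up to 6 passing members of each list, a fixed set of stress genes, and the 6 largest rises and falls against 60 min; exceptions are stated. A further 5 genes were named after their values were seen to complete short counts. The members and the 34 lists (1000 genes, 843 tested) were chosen with earlier results of these data known. Promoters were RefSeq windows of build GRCr8. Alternatives changed the scaling, added constant, filter, block, arrays and variance model.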

Additional observations from a re-analysis of the deposited data

Results flagged for a closer look

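In a group of 4 arrays, 1 array was taken to lie far from the other 3 where its gap to the nearest, divided by the group's range, exceeded Dixon's 95% critical value for 4 values. Of 302 gene and group pairs examined, 31 met this, where chance gives about 1 in 20 groups. Values are normalized intensities, each followed by the range of the other 3 arrays of the same group.

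The array labelled 120 min P2D2 accounted for 8 of the 31. It lay apart for Rrad (1620, others 2290 to 2350), Ddit4 (2140, others 3750 to 3900), Atf3 (4690, others 2190 to 2250), Ppargc1a (79.9, others 147 to 152), Hspa1a (9040, others 773 to 1160), Hsph1 (3020, others 1680 to 1810), Bag3 (5520, others 3470 to 3550) and Pfkfb3 (1170, others 860 to 874). Hspa1a, Hsph1, Bag3, Atf3 and Pfkfb3 were high on it, and Rrad, Ddit4 and Ppargc1a were low. The array labelled 120 min P1D1 lay apart for Hnrnpm (1370, others 1280 to 1290).

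The array labelled 0 min P1D1 accounted for 11. It lay apart for Dusp1 (347, others 1530 to 1790), Sik1 (66.2, others 533 to 683), Cdkn1b (1900, others 255 to 277), H1f2 (17.9, others 2810 to 3680) and Tle5 (2970, others 114 to 166). It also lay apart for Hilpda (40.3, others 341 to 445), Sipa1l2 (2480, others 301 to 372), Hif1a (-63, others 4290 to 4340), Synpo (78.9, others 177 to 195), Tcea1 (2830, others 59 to 123) and Klf5 (86.9, others 316 to 337). Cdkn1b, Tle5, Sipa1l2 and Tcea1 were high on it, and the other genes were low.

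On the array labelled 0 min P1D2 the genes were Nppa (13800, others 14200), Egfl7 (198, others 464 to 531), Ak4 (437, others -42.1 to -31), Slc2a3 (544, others 356 to 381), Ripor1 (292, others 117 to 124) and Uox (272, others 144 to 148). On 0 min P2D1 they were Gnaq (79, others 182 to 190) and Cdk14 (91.8, others 208 to 236), and on 0 min P2D2 Kdm3a (472, others 508 to 516), Ina (117, others -144 to 4.82) and Fos (268, others 378 to 401). The cause of none of these was tested.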

How the results depend on the processing

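The comparison of 120 min with 0 min called 2408 probe sets, and leaving out each array in turn gave 1729 to 3197, lowest without 120 min P2D1, the array that shares a preparation with P2D2, and highest without P2D2. Without the preparation pairing (no replicate block) it called 1484, 711 higher and 773 lower, and 88 of the 136 named calls remained. With the ischemia arm alone, which leaves fewer residual degrees of freedom, it called 989, and 70 of the 136 remained. Other settings stayed within 1.5 times: 3411 on the deposited scale (271 higher, 3140 lower), 2192 with arrays centred on their medians (905 higher, 1287 lower), 2512 and 2343 with 64 and 4 added, 2480 with no filter, 1898 at the 60th percentile, 3542 with arrays as samples, 2586 with an intensity trend, and 3215 without both arrays that stand apart, the last chosen after seeing the data. On the deposited scale Srsf11 (-0.014), Rpl22 (-0.053) and Tfeb (-0.008) changed sign.

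The comparison with 60 min called 510 probe sets and depended more on the setting: 14 on the deposited scale, 103 with no replicate block, 3 with the ischemia arm alone, 1613 with arrays as samples and 847 without both arrays that stand apart. Leaving out in turn each array of 120 and 0 min gave 311 (without 0 min P2D2) to 667 (without 120 min P1D1), with 315 without 0 min P1D2, and leaving out each 60 min array, added after seeing the data, gave 373 to 739. The 0 min arrays enter it through the shared variance and preparation terms only.

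The test of the difference between arms called 0 by limma, 1 on the deposited scale, 1 with 64 added, 25 with no filter, 50 with arrays as samples, 2 without both arrays that stand apart, and 0 to 1 with each ischemia array of 120 and 0 min left out in turn. With each array of the reperfusion arm at those times left out, added after seeing the data, it called 0 to 7, with 7 without 120 min P2D1 and 2 without 0 min P2D2. Without the pair of 120 min arrays that stand apart it called 123. It also called 0 with no replicate block. The cause of these differences was not tested. Dim probe sets near the floor have the least certain changes, since the added constant sets their size.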
